A study of Mus musculus with 32 samples.

Results

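The 26 killer cell lectin-like receptor genes described here are all symbols that begin with Klr among the 31053 genes of a single-cell RNA count table from mouse fat, chosen by name and not by any measured value. They were followed in stromal vascular fraction cells of epididymal fat, the cells left once fat-filled adipocytes are removed. The 4 libraries came from C57BL/6 mice: CD169-DTR mice on high fat diet, WT mice on high fat diet, CD169-DTR mice on normal diet and WT mice on normal diet. In CD169-DTR mice the receptor for diphtheria toxin is under control of the locus of Siglec1, which encodes the macrophage lectin CD169. Diets lasted 16 weeks, and every group, WT included, then had diphtheria toxin for 7 days. Immune (CD45+) and non-immune (CD45-) cells were sorted apart and mixed in equal parts, after many F4/80-high macrophages and Ly6C-high monocytes had been gated out. The labels do not state the number, age or sex of the mice behind a library, and each group has 1 library. No difference below therefore has a replicate check or a p-value, and all intervals are 95% intervals for counting error only.

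Killer cell lectin-like receptors are C-type lectin-like proteins on the surface of natural killer (NK) cells and some other leukocytes. The Ly49 receptors, encoded by the Klra genes, bind classical MHC class I molecules, and most inhibit the cell while a few activate it. CD94 (Klrd1) pairs with the NKG2 proteins of the Klrc genes and reads the class Ib molecule Qa-1 (H2-T23), NKG2D (Klrk1) reads stress-induced ligands, the NKR-P1 receptors (Klrb1 genes) read Clec2 proteins, and KLRG1 reads cadherins. In fat, NK cells and group 2 innate lymphoid cells are resident lymphocytes that respond to feeding and inflammation.

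All 26 genes lay on chromosome 6 (GRCm38). Of these, 24 stood within 2.64 Mb, between 128609227 and 131247362, the region known as the NK gene complex. Klrg1 (122270596 to 122282882, minus strand) and Klrg2 (38625693 to 38637242, minus strand) lay outside it. The Klra cluster holds close copies, and the upstream sequences of Klra4 (Ly49D), Klra8 (Ly49H), Klra17 (Ly49Q) and Klra2 (Ly49B) are alike. They are shown here because Klra4 and Klra8 were both highest in NK-gated cells, while Klra17 and Klra2 were highest in other cells. The 250 bases before each gene's annotated start, from RefSeq (GRCm38.p6), read 5′ to 3′ on the minus strand of chromosome 6, at chr6:130067272-130067521 for Klra4, chr6:130129899-130130148 for Klra8, chr6:129876673-129876922 for Klra17 and chr6:131247363-131247612 for Klra2. Capitals mark the 15-base stretch that all 4 share:
Klra4: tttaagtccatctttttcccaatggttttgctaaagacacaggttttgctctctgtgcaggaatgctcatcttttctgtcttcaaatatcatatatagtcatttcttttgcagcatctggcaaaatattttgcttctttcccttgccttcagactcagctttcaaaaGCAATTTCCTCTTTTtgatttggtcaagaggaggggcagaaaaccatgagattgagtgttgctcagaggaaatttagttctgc
Klra8: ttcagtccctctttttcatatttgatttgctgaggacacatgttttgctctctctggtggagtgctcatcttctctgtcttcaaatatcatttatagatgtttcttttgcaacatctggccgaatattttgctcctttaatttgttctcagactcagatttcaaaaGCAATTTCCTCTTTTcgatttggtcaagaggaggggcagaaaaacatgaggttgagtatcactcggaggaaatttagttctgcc
Klra17: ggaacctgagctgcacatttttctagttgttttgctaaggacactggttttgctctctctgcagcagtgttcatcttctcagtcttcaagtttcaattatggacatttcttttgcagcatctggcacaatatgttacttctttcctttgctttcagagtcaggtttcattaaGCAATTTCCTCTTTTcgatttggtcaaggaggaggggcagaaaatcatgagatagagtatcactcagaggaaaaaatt
Klra2: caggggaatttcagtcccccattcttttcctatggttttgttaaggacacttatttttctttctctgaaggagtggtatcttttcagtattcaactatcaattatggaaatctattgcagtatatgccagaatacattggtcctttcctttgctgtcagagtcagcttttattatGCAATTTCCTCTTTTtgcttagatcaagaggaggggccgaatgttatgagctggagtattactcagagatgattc

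The stretch GCAATTTCCTCTTTT, searched on both strands, was found in 7 of 27025 mouse upstream sequences of this length (0.0259%), and all 7 belonged to Klra genes: Klra17, Klra6, Klra4, Klra8, Klra9, Klra3 and Klra2. Because the stretch was taken from Klra4, Klra8, Klra17 and Klra2, their matches were given in advance. Over the aligned 250 bases, Klra4 was 84.5% identical to Klra8, 79.0% to Klra17 and 70.1% to Klra2. Of pairs outside the Klra genes, Klrc3 and Klrc2 were 70.8% identical and Klrb1a and Klrb1c 64.8%, and some Klra pairs were lower, with 45.1% between Klra4 and Klra7. Upstream sequences were at hand for 23 of the 26 genes. Of 6 short motifs searched on both strands, the RUNX core TGTGGT was in 8 of the 23 (Klrb1a, Klrb1c, Klre1, Klrk1, Klrc3, Klrc2, Klrc1 and Klra1), against 14.2% of all 27025. The letters TATAAA were in 9 of the 23 (Klrc2, Klrc1 and 7 Klra genes), against 13.0% of all. The T-box core GTGTGA was in 1 of the 23 against 12.2% of all, and AGATAA, the GATA core, was in 3 against 10.3%. Neither the ETS core CCGGAA (12.2% of all) nor the AP-1 core TGAGTCA (4.43% of all) was in any of the 23. These matches describe letters and say nothing of whether a factor binds.

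After filtering, the libraries held 5627 cells (high fat CD169-DTR), 5120 (high fat WT), 3599 (normal diet CD169-DTR) and 4982 (normal diet WT), with median depths between 6159 and 9151 UMIs (unique molecular identifiers, each counting 1 captured RNA). Siglec1 was at 3.03 CPM (UMIs of a gene scaled to 1e6 UMIs of the cells) in high fat CD169-DTR, 1.12 in high fat WT, 3.49 in normal diet CD169-DTR and 0.139 in normal diet WT. It was thus higher in both libraries labelled CD169-DTR. Loss of Siglec1-expressing cells to the toxin would give the reverse, so these values do not check the labels. The reason was not tested, and groups are called by their labels throughout. Every direction below rests on those labels, and the labels do not state how the receptor sits in the locus. Between 1.25% and 4.86% of a library's barcodes also occurred in another library, with 157 shared by the normal diet pair.

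Every one of the 26 genes had at least 1 UMI, and 23 had 50 or more and were detected, with 3 or more UMIs, in all 4 libraries. The other 3 were Klrb1 with 29 UMIs, Klrc3 with 5 and Klra10 with 3 over all kept cells. Together the family had 41872 UMIs, 0.0237% of all UMIs. Cells were sorted into 13 classes by UMIs of marker genes that include no Klr gene, and a class is called here by its gate. NK-gated cells (Ncr1, Eomes, Prf1 or Tbx21, with no Cd3) were 5.76% of kept cells and held 51.9% of the family's UMIs. The 4 dendritic gates held 12.6% and T-gated cells 6.96%, while cells in no gate held 13.4% and cells that fell into 2 gates 8.77%. Markers that the gates did not use were checked. Gzma was at 5279 CPM in NK-gated cells and 223 in T-gated cells, its next highest class. Trbc1 was not specific, at 680 CPM in T-gated and 723 in NK-gated cells, but Trac was at 261 and 26.1 CPM.

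By the median over the 4 libraries, 18 of the 23 genes were highest in NK-gated cells and 5 were not. Klrg1 was highest in group 2 innate lymphoid-gated cells, Klra17 in plasmacytoid dendritic, Klri1 in migratory dendritic, Klra2 in neutrophil and Klrg2 in type 1 dendritic-gated cells. Klrg2 was low everywhere, at a median of 4.13 CPM in type 1 dendritic-gated cells. Some ranks rest on few UMIs or small gaps. Klra2 had 28 UMIs in neutrophil-gated and 586 in monocyte-gated cells, and Klra6 medians were 5.09 CPM in NK-gated and 4.92 in T-gated cells. Levels per gene come from a 3′ assay and are compared between cells, not between genes.

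**Figure D1:**
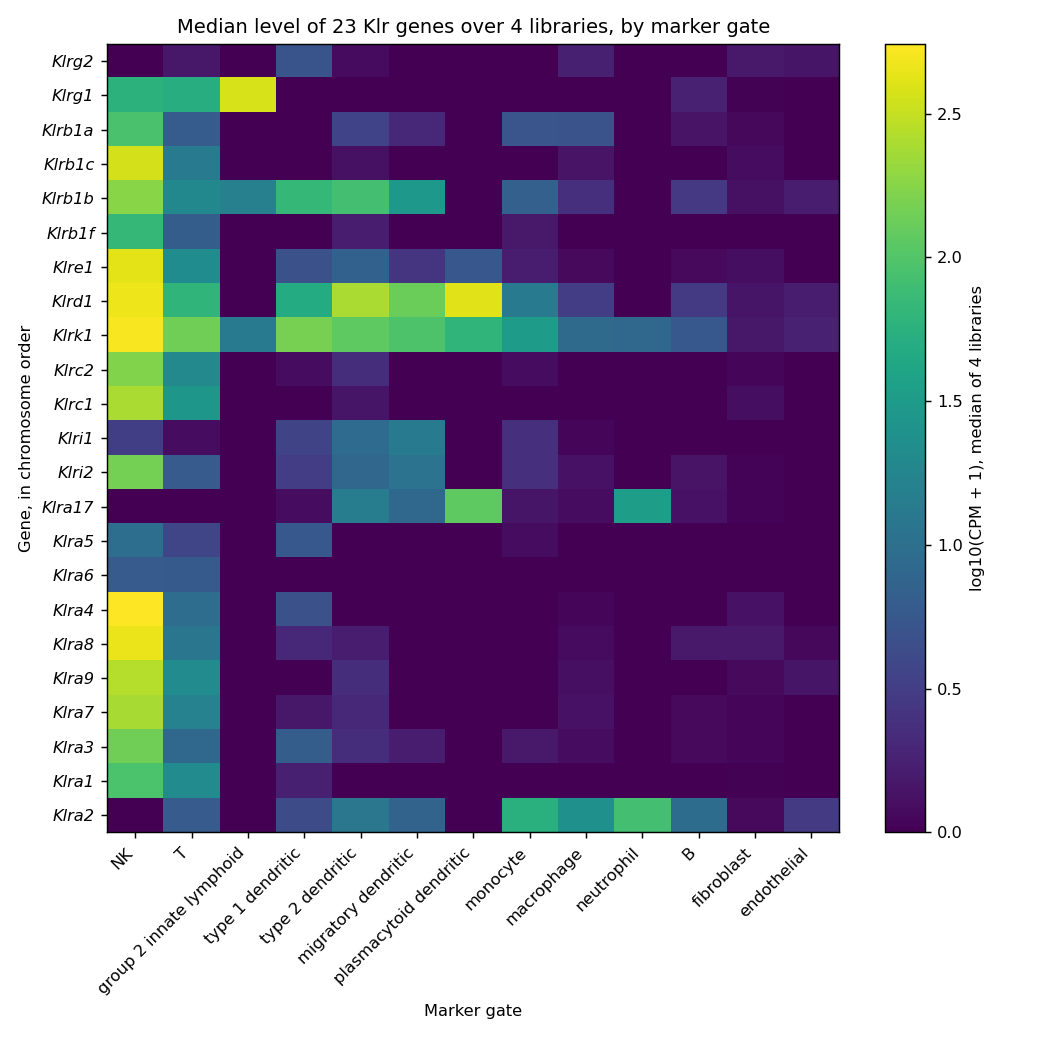
Median CPM over the 4 libraries, as log10(CPM + 1), for the 23 Klr genes with 50 or more UMIs (rows, in chromosome order) in 13 marker gates (columns). Of the 23 rows, 18 are brightest under NK, while Klrg1 is brightest under group 2 innate lymphoid, Klra17 under plasmacytoid dendritic and Klra2 under neutrophil, where the median was 83.7 CPM.

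In NK-gated cells Klrk1, Klrd1 and Klre1 were found at similar levels in the 4 libraries. Klrk1 (NKG2D) was at 453 CPM in high fat CD169-DTR, 567 in high fat WT, 519 in normal diet CD169-DTR and 520 in normal diet WT, and had a UMI in 74.1% to 82.0% of the cells at full depth. In cells thinned to 1500 UMIs the shares were 45.9%, 55.2%, 52.8% and 56.7% in the same order. Klrd1 (CD94) was at 466, 476, 560 and 464 CPM in the same order of libraries, and Klre1, which pairs with KLRI proteins, at 443, 411, 498 and 399. The normal diet CD169-DTR library was highest for Klrd1 and Klre1, by 1.21-fold and 1.25-fold over normal diet WT. In fibroblast-gated cells, which should lack these receptors, Klrk1 had a UMI in 0.339% to 0.801% of cells at median depths of 9954 to 11669 UMIs, against medians of 3046 to 3834 UMIs in NK-gated cells.

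Of the NKG2 genes, Klrc1 (inhibitory NKG2A) was at 168 CPM in high fat CD169-DTR, 340 in high fat WT, 224 in normal diet CD169-DTR and 277 in normal diet WT. Klrc2 (activating NKG2C) was at 124, 214, 181 and 149 CPM in that order. Both were lowest in high fat CD169-DTR and highest in high fat WT. Of the 90-base windows at the 3′ end of Klrc1, 67.4% were unique among mouse transcripts and the rest matched Klrc2, so part of the reads of Klrc1 may have been dropped as ambiguous. Klri2, the activating partner of KLRE1, was at 133, 140, 157 and 154 CPM, and Klri1, its inhibitory counterpart, had 13 UMIs in all NK-gated cells.

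Among the NKR-P1 genes, Klrb1c encodes NK1.1, the activating receptor by which mouse NK cells are commonly stained. It was at 436 CPM in high fat CD169-DTR, 398 in high fat WT, 331 in normal diet CD169-DTR and 245 in normal diet WT, so both high fat libraries lay above both normal diet libraries. Inhibitory Klrb1b was at 173, 192, 189 and 156 CPM, and Klrb1a at 88.3, 88.7, 103 and 87.1. Klrb1f, whose protein binds the Clec2i product, was at 101, 52.6, 78.2 and 51.6 CPM and was higher in the CD169-DTR library of each diet, by 1.93-fold in high fat and 1.52-fold in normal diet. Summed over the 5 genes, NKR-P1 UMIs were at 803, 731, 708 and 544 CPM.

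Of the Ly49 genes, Klra4 (activating Ly49D) was at 397 CPM in high fat CD169-DTR, 521 in high fat WT, 779 in normal diet CD169-DTR and 582 in normal diet WT. Klra8 (activating Ly49H) was at 311, 405, 540 and 505 CPM, and Klra7 (inhibitory Ly49G) at 215, 191, 364 and 266. Klra9 (Ly49I) was at 128, 312, 233 and 344 CPM and was lower in the CD169-DTR library of each diet. Klra3 (Ly49C) was at 109, 127, 150 and 166 CPM and Klra1 (Ly49A) at 67.1, 105, 116 and 76.3. Klra5 and Klra6 had 43 and 37 UMIs in NK-gated cells, while the 8 UMIs of Klra17 and the 13 of Klra2 were all in the normal diet CD169-DTR library. That library's NK-gated cells also had 548 CPM of the myeloid gene Lyz2, against 28.0 to 60.8 CPM in the other 3, and its part in those UMIs was not tested. Summed over the 11 Ly49 genes, the level was 1244 CPM in high fat CD169-DTR, 1672 in high fat WT, 2219 in normal diet CD169-DTR and 1949 in normal diet WT.

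**Figure D2:**
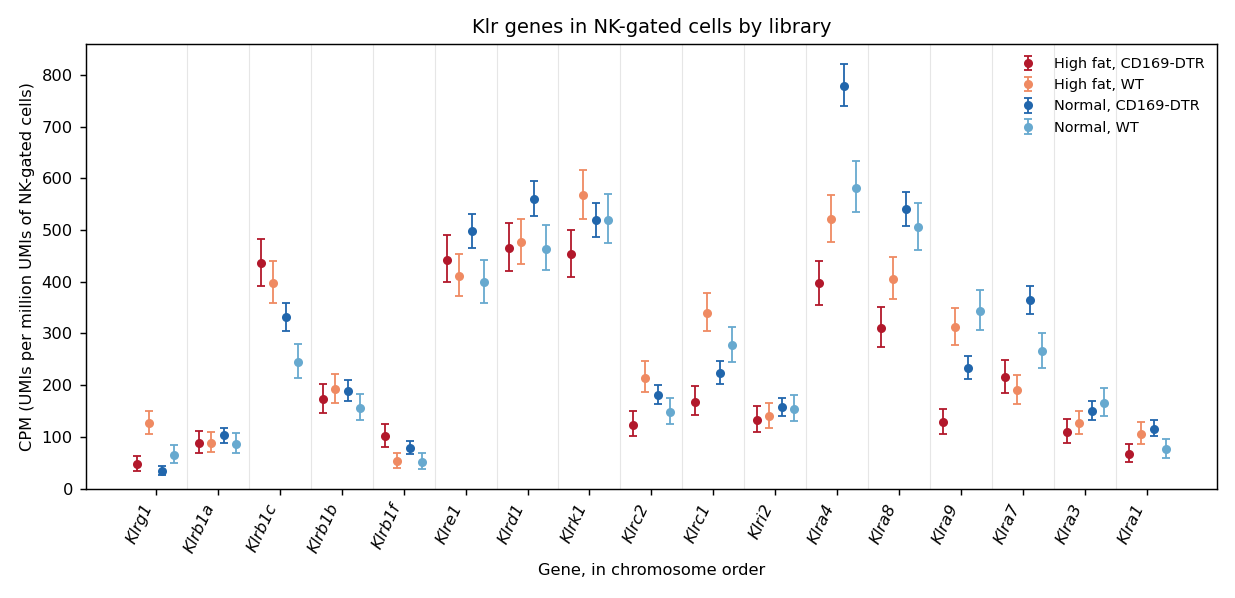
CPM of the 17 Klr genes with 50 or more UMIs per comparison in NK-gated cells (vertical axis) by gene and library, as points with exact Poisson intervals. High fat CD169-DTR is the lowest library for Klrc1 at 168 CPM and for Klra9 at 128 CPM, and normal diet CD169-DTR is the highest for Klra4 at 779 CPM.

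NK cells carry Ly49 genes in mixed sets, so single cells were counted. At full depth a mean of 1.77 Klra genes per NK-gated cell had a UMI in high fat CD169-DTR (201 cells), 1.98 in high fat WT (280 cells), 2.39 in normal diet CD169-DTR (411 cells) and 2.24 in normal diet WT (222 cells), with standard deviations over cells of 1.22, 1.24, 1.34 and 1.34. Cells thinned to 1500 UMIs had means of 1.20, 1.47, 1.73 and 1.72, with 18, 10, 6 and 5 shallower cells left out. The share of thinned cells with 2 or more Klra genes was 41.0% (interval 33.8% to 48.5%), 46.7% (40.6% to 52.8%), 56.3% (51.3% to 61.2%) and 56.7% (49.8% to 63.4%). High fat libraries were lower than normal diet libraries on this measure. The interval of high fat WT overlapped both normal diet intervals, and that of high fat CD169-DTR overlapped neither. Within normal diet the CD169-DTR and WT values lay inside each other's intervals.

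Klra8 was found more often in cells that had Klra4. In high fat CD169-DTR, 53.7% of Klra4-positive cells and 31.9% of Klra4-negative cells had a Klra8 UMI. The pairs of shares were 60.9% and 36.5% in high fat WT, 64.3% and 41.8% in normal diet CD169-DTR, and 69.1% and 41.4% in normal diet WT. Median depths of Klra4-positive and Klra4-negative cells were 3354 and 3100 UMIs in high fat CD169-DTR and 2884 and 3160 in high fat WT. Klra9 and Klra3, whose 3′ ends partly match other Klra transcripts, were found together less often in 3 libraries and more often in 1, with overlapping intervals. In high fat CD169-DTR, 7 of 50 Klra9-positive cells (interval 5.82% to 26.7%) and 26.5% of Klra9-negative cells had Klra3. The shares were 20.5% and 25.6% in high fat WT, 25.6% and 27.1% in normal diet CD169-DTR, and 26.2% and 21.7% in normal diet WT. For CD94 and NKG2A, which form 1 receptor, 73.8% of Klrc1-positive and 70.7% of Klrc1-negative cells had Klrd1 in high fat CD169-DTR, and the shares were 73.5% and 71.8% in high fat WT, 78.2% and 75.7% in normal diet CD169-DTR, and 77.7% and 73.9% in normal diet WT. Cells of 1 library share its source and are not replicates.

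In high fat diet, NK-gated cells of the CD169-DTR library had lower Klrg1, Klra9 and Klrc1 than those of WT. A gene was measured where the pair of libraries had 50 or more UMIs of it, and called at 2-fold or more. Klrg1, an inhibitory receptor of mature NK cells, was at 47.1 CPM in CD169-DTR and 127 CPM in WT, a log2 ratio of -1.43 (-1.98 to -0.90). For Klra9 the log2 ratio was -1.28 (-1.61 to -0.96) and for Klrc1 -1.02 (-1.31 to -0.73). These were 3 of 17 measured Klr genes lower and 0 higher, where 2.00% of all 4642 measured genes were lower and 4.50% higher. The median log2 ratio was -0.21 over the Klr genes and 0.07 over all genes, and 13 of the 17 were below 0. Among the 14 that were not called, Klrb1f was nearest above, at 0.95 (0.43 to 1.47), and Klrc2 nearest below, at -0.79 (-1.15 to -0.45).

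NK-gated cells of that library differed in other ways that were measured beside these genes. The summed level of 7 NK markers was 7779 CPM in high fat CD169-DTR, 14198 in high fat WT, 8995 in normal diet CD169-DTR and 11277 in normal diet WT, with all 7 present in each. Cell cycle markers (Mki67, Top2a, Ccnb1 and Birc5) summed to 729, 183, 238 and 328 CPM, and 23.4%, 7.50%, 11.2% and 9.01% of the cells had a UMI of 1 of them. Without those cells, Klrg1 was the only gene still called among the 17 in high fat diet, and with each cell scaled to the same total it was again Klrg1 alone. Cells with 2 or more UMIs of Ltb, the lymphotoxin beta gene, were 52 of 201 in high fat CD169-DTR and 19 of 280 in high fat WT. Without them, a split chosen after the data were seen, Klrg1 was at 53.4 CPM in CD169-DTR and 106 in WT, a log2 ratio of -0.98 (-1.63 to -0.37), just short of the call. Klrc1 was then at -1.66 (-2.10 to -1.25) and Klra9 at -1.05 (-1.41 to -0.71), so 2 of 17 were called. The part of these markers in the lower values was not tested beyond these subsets.

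In normal diet, none of the 17 measured genes was called in NK-gated cells of CD169-DTR against WT, where 5.67% of 5975 genes were called in either direction. The nearest was Klrg1, at 34.9 CPM in CD169-DTR and 65.6 CPM in WT, a log2 ratio of -0.91 (-1.44 to -0.38), and TMM scaling, which sets libraries on their middle genes, put it at -1.07, past 2-fold. Klra9 was at -0.56 (-0.77 to -0.35) and Klrc1 at -0.31 (-0.54 to -0.08), so the 3 genes called in high fat diet were below 0 in both diets. The other direction held for Klra7 at 0.46 (0.24 to 0.67), Klrb1c at 0.43 (0.21 to 0.66) and Klra4 at 0.42 (0.28 to 0.57). Over the 17, 12 were above 0, with a median of 0.27 against 0.14 over all genes.

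**Figure D3:**
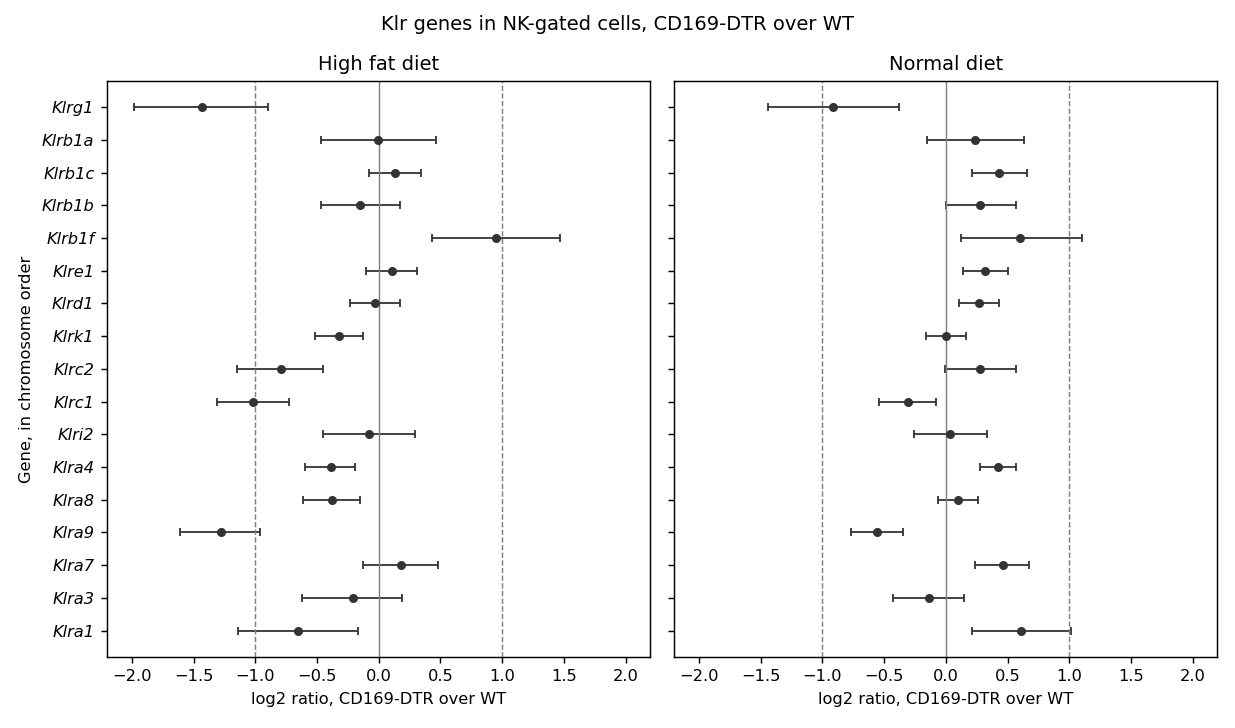
Log2 ratio of CD169-DTR over WT in NK-gated cells (horizontal axis) for 17 Klr genes in high fat diet (left) and normal diet (right), with intervals for counting error and dashed lines at 2-fold. Klrg1, Klra9 and Klrc1 pass the left dashed line in high fat diet, at -1.43, -1.28 and -1.02, and no gene passes in normal diet at this scaling.

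The summed Ly49 level of NK-gated cells was lower on high fat than on normal diet in CD169-DTR and in WT, with no gene past the 2-fold call. In CD169-DTR mice the summed Klra level was 1244 CPM on high fat diet and 2219 CPM on normal diet, a log2 ratio of -0.83 (-0.93 to -0.74), with Klra4 at -0.97 (-1.15 to -0.80) and Klra9 at -0.86 (-1.18 to -0.56). In WT mice it was 1672 CPM on high fat and 1949 CPM on normal diet, a log2 ratio of -0.22 (-0.32 to -0.12). There Klra7 was at -0.48 (-0.76 to -0.20), while Klra1 was higher on high fat diet, at 0.46. The sum of the 5 NKR-P1 genes went the other way from the Klra sum, at 0.18 (0.05 to 0.32) in CD169-DTR and 0.43 (0.26 to 0.59) in WT. Single genes were mixed. In CD169-DTR, Klrb1c (436 and 331 CPM) and Klrb1f (101 and 78.2) were higher on high fat than on normal diet. Klrb1a (88.3 and 103), Klrb1b (173 and 189) and Klrb1 (4.71 and 6.87) were lower. In WT, Klrb1c was at 398 CPM on high fat and 245 on normal diet. No Klr gene of 17 was called in CD169-DTR, where 4.96% of 6045 genes were, nor in WT, where 1.48% of 4599 were. Each diet comparison shares its libraries with the comparisons of CD169-DTR and WT, so they are not independent.

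Genes that work with these receptors were taken from lists by function. Of 16 measured adaptor and signalling genes in NK-gated cells, none was called in high fat diet, and 1 was higher in normal diet, where 5.19% of all genes were higher and 0.485% lower. It was Sh2d1a, which encodes the SLAM adaptor SAP, at 156 CPM in CD169-DTR and 75.3 CPM in WT, and with TMM scaling it was within 2-fold, at 0.90. Tyrobp (DAP12), the adaptor of activating Ly49 receptors and NKG2C, had a median of 2934 CPM in NK-gated, 5805 in plasmacytoid dendritic-gated and 2217 in type 2 dendritic-gated cells. Hcst (DAP10), the adaptor of NKG2D, had a median of 531 CPM in NK-gated cells but 24.3 in type 1 and 35.2 in type 2 dendritic-gated cells. Of 12 other measured NK receptors in high fat diet, Ltb, Crtam and Cd160 were higher and Cd226, Slamf7 and Itgam lower in CD169-DTR, where 4.50% of all genes were higher and 2.00% lower. With TMM scaling Cd160 was at 0.90 and no longer called. Ltb, lymphotoxin beta, was at 520.0 CPM in CD169-DTR and 94.9 CPM in WT, and Itgam (CD11b) at 16.5 and 59.8 CPM. Of 13 measured in normal diet, Ltb (340 and 92.5 CPM) and Fcgr3 (61.8 and 28.0 CPM) were higher in CD169-DTR and none was lower, with Fcgr3 at 0.99 and within 2-fold under TMM scaling. Of 10 measured transcription factors, Zeb2, a factor of NK maturation, was lower in high fat CD169-DTR, at 43.6 CPM against 92.8 CPM in WT, and none was called in normal diet. With TMM scaling Id2 also passed in high fat diet, at -1.13. For high fat over normal diet, none of the 16 adaptors was called in CD169-DTR or WT. Itgam, Slamf7 and Zeb2 were lower on high fat diet in CD169-DTR, where 2.99% of all genes were lower, and Crtam was lower in WT, where 0.783% were. Of the receptors' ligands, 5 or 6 were measured in NK-gated cells. Clec2i was higher in CD169-DTR than in WT on normal diet, at 41.2 and 16.1 CPM, and Clec2d was lower on high fat than on normal diet in CD169-DTR, at 37.7 and 80.3 CPM.

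T-gated cells had Klr genes in a minority. Klrk1 had 721 UMIs in them, at 158 CPM in high fat CD169-DTR, 123 in high fat WT, 178 in normal diet CD169-DTR and 100 in normal diet WT. Among T cells with Trdc, the gamma-delta T cells, Klrk1 was at 296, 255, 160 and 137 CPM (97, 92, 66 and 134 cells). Among those with Cd8 it was at 127, 108, 146 and 96.7 CPM (66, 200, 34 and 37 cells). Both high fat libraries were above both normal diet libraries in the gamma-delta cells and not in the CD8 cells. Klrd1 was at 48.3, 64.8, 119 and 58.5 CPM over all T-gated cells, and Klrg1 at 33.7, 47.0, 52.8 and 70.0. T-gated cells also had the myeloid gene Lyz2, at 1573, 1489, 1577 and 2035 CPM. Monocyte-gated cells had Klrk1 at 21.1 to 73.0 CPM. The part of myeloid RNA in the T-gated Klr values was not tested.

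The normal diet CD169-DTR library stood apart in T-gated cells. Klra4 was at 0 CPM in high fat CD169-DTR, 11.0 in high fat WT, 116 in normal diet CD169-DTR and 6.31 in normal diet WT. Klra8 was at 4.39, 5.02, 89.7 and 16.6 CPM, Klrb1c at 10.2, 6.39, 65.4 and 14.3, and Klre1 at 20.5, 20.5, 65.4 and 20.7. In normal diet 7 of 12 measured Klr genes were higher in CD169-DTR (Klrb1c, Klre1, Klrd1, Klrc1, Klra4, Klra8 and Klra7) and 0 lower, where 2.96% of 5775 genes were higher and 1.77% lower. The median over all genes in this comparison was 0.12 on the log2 scale. The log2 ratios ran between 1.03 (0.63 to 1.43) for Klrd1 and 4.20 (3.31 to 5.25) for Klra4. With TMM scaling Klrd1 was at 0.86, leaving 6 genes called. In CD169-DTR mice, high fat over normal diet gave 7 of 9 measured genes lower, where 2.55% of 4505 were lower. That comparison shares the normal diet CD169-DTR library. In both comparisons a gene was measured by the UMIs of the pair of libraries together. A gene high in normal diet CD169-DTR could thus be measured with few or no UMIs in the other library. Both counts of calls depend in part on this rule, which held for all genes, and its share was not tested. Klra4, with no UMI in 272 cells of high fat CD169-DTR, was 26.4-fold lower when set to a floor of 3 UMIs, or 4.39 CPM. That is not a lower limit, as the interval for the count of 0 ran up to 5.40 CPM.

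Of T-gated cells, 15.1% in high fat CD169-DTR, 25.5% in high fat WT, 28.4% in normal diet CD169-DTR and 9.55% in normal diet WT had a UMI of Ncr1, Eomes, Gzma or Prf1. Without those cells Klra4 was at 0, 0, 1.77 and 0.654 CPM, and Klrb1c at 5.21, 2.69, 3.54 and 2.62. Of the 7 genes called in normal diet, 0 then had the 50 UMIs needed, so whether they still differed could not be read from the calls. Klrc1 was at 26.6 CPM in CD169-DTR (15 UMIs) and 5.88 CPM in WT (9 UMIs), a log2 ratio of 2.17 (0.89 to 3.55), and Klrd1 at 28.3 and 20.9 CPM, a log2 ratio of 0.44 (-0.53 to 1.35). The Klra4 UMIs of that library lay mainly in T-gated cells that also had NK marker UMIs. Klrk1, at 151, 110, 103 and 82.4 CPM, was left in all 4 libraries. Ncr1, which few T cells make, was at 39.0 CPM in T-gated cells of normal diet CD169-DTR against 5.86 to 9.18 CPM in the other 3. The part of droplets with RNA of both cell types in these values was not tested.

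**Figure D4:**
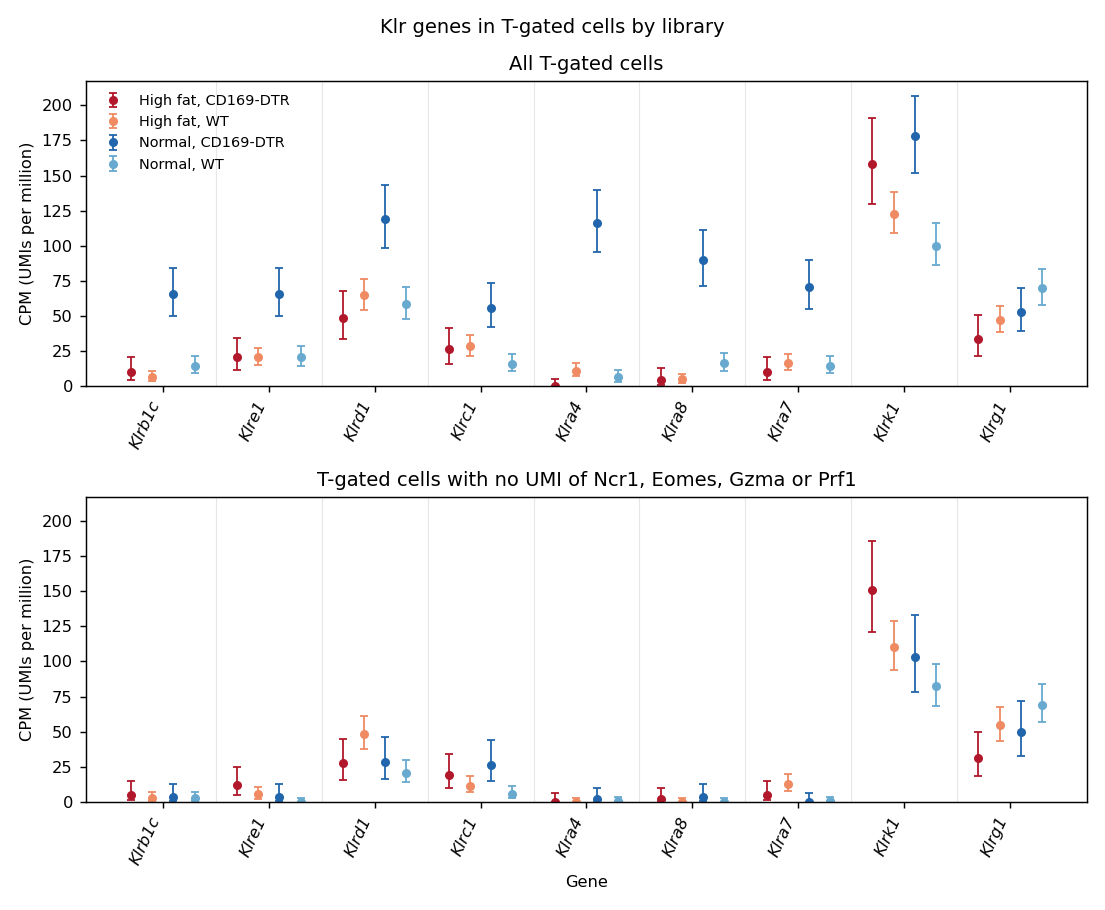
CPM of 9 Klr genes in all T-gated cells (top) and in those with no UMI of Ncr1, Eomes, Gzma or Prf1 (bottom), by library, with exact Poisson intervals. Normal diet CD169-DTR is above the other libraries for the 7 genes on the left at the top, with Klra4 at 116 CPM, and Klra4 is at most 1.77 CPM in any library at the bottom.

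The remaining T comparisons gave fewer calls. In high fat diet 0 of 6 measured genes were called between CD169-DTR and WT, where 4.83% of 5924 genes were called. In WT mice on high fat over normal diet, Klrc2 was higher, at 16.9 and 8.03 CPM, where 1.95% of 6775 genes were higher. Klra9 (12.8 and 29.8 CPM) and Klra1 (12.3 and 27.5 CPM) were lower there, out of 10 measured, and 1.95% of all genes were lower. These 2 calls rest on few cells. Klra9 had 28 UMIs in 10 of 518 cells on high fat and 52 UMIs in 7 of 314 on normal diet. Klra1 had 27 UMIs in 9 cells and 48 UMIs in 5. Shares of cells with a UMI were 1.93% and 2.23% for Klra9 and 1.74% and 1.59% for Klra1. T-gated cells of high fat CD169-DTR were shallow, with a median of 1641 UMIs against 3131 to 3999 in the other 3.

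Group 2 innate lymphoid-gated cells carried Klrg1 and little else of the family. Klrg1, a marker of mature group 2 innate lymphoid cells, was at 296 CPM in high fat CD169-DTR (23 cells), 358 in high fat WT (62 cells), 522 in normal diet CD169-DTR (44 cells) and 397 in normal diet WT (144 cells). It had a UMI in 47.8%, 61.3%, 70.5% and 72.2% of these cells and made 401 of the class's 427 Klr UMIs. Only the WT libraries had 50 cells each, and there the log2 ratio of high fat over normal diet was -0.15 (-0.54 to 0.23), with 0 of 1 measured Klr genes called where 4.47% of 1945 genes were.

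Dendritic-gated cells had Klr genes with few UMIs of NK markers. The 7 NK markers summed to 3.64 to 22.5 CPM in type 1 and 8.81 to 62.0 CPM in type 2 dendritic-gated cells. In NK-gated cells they summed to 7779 to 14198 CPM. In type 2 dendritic-gated cells, 6 of the 7 were detected in high fat WT and all 7 in normal diet WT. Gzma made 15 UMIs in type 1 dendritic-gated cells against 1034 of Klrk1, and 40 UMIs in type 2 dendritic-gated cells against 992 of Klrd1, where NK-gated cells had 24505 of Gzma, 2402 of Klrk1 and 2350 of Klrd1. Klra4, with 2857 UMIs in NK-gated cells, had 21 in type 1 and 7 in type 2 dendritic-gated cells. Per 100 Gzma UMIs, Klrk1 had 9.80 UMIs in NK-gated and 6893 in type 1 dendritic-gated cells, and Klrd1 had 9.59 in NK-gated and 2480 in type 2 dendritic-gated cells. B-gated cells, with 8 Gzma UMIs, had 488 for Klrk1 and 175 for Klrd1, and fibroblast-gated cells 26.0 and 23.6. A ratio above that of NK-gated cells was thus not particular to dendritic-gated cells.

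Type 1 dendritic-gated cells (Xcr1 or Clec9a) had Klrk1 at 122 CPM in high fat CD169-DTR, 138 in high fat WT, 216 in normal diet CD169-DTR and 166 in normal diet WT, with a UMI in 75 of 125, 129 of 171, 67 of 86 and 175 of 230 cells in that order. Klrb1b was at 68.9 CPM in high fat CD169-DTR, 63.4 in high fat WT and 127 in normal diet WT, and had 56 UMIs in normal diet CD169-DTR against 313 in normal diet WT. In normal diet it was the only 1 of 3 measured genes called between CD169-DTR and WT, at a log2 ratio of -1.08 (-1.52 to -0.67), where 1.26% of 5085 genes were lower and the median over all genes was 0.16. In WT mice Klrb1b was at 63.4 CPM on high fat and 127 CPM on normal diet, which fell just short of the 2-fold call, and with TMM scaling it was past it at -1.13. None of 3 genes was called in high fat diet, where 6.67% of all genes were, nor in high fat over normal diet in CD169-DTR, where 4.53% were, or in WT, where 2.51% were.

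Type 2 dendritic-gated cells (Cd209a) had more Klrd1 than type 1, at 297 CPM in high fat CD169-DTR, 204 in high fat WT, 353 in normal diet CD169-DTR and 111 in normal diet WT. Both CD169-DTR libraries were above both WT libraries. In normal diet Klrd1 was the 1 gene called of 3 measured, with a log2 ratio of 1.66 (1.42 to 1.91), where 6.31% of genes were higher and their median was 0.12, and in high fat diet it was at 0.54 (0.24 to 0.84), with 0 of 3 called where 10.6% of all genes were. High fat over normal diet gave 0 of 3 calls in CD169-DTR, where 5.24% of genes were called, and in WT, where 2.75% were. Klrk1 was at 137, 93.7, 148 and 79.9 CPM, in the same order as Klrd1, and Klrb1b at 74.9, 121, 53.1 and 91.8, lower in the CD169-DTR library of each diet. Monocyte markers moved with Klrd1 in these cells, at 976, 402, 1127 and 394 CPM summed over 6 markers (Chil3 at 0 in normal diet WT), and their part in the result was not tested. The summed level of 4 plasmacytoid dendritic markers was 346, 131, 397 and 113 CPM, of which Bst2 alone made 337, 129, 384 and 110. Siglech and Ccr9, which define those cells, had 1 to 6 UMIs each per library, and Cox6a2 was at 0 in 3 libraries. Without cells that had a UMI of Siglech or Ccr9, Klrd1 was at 291, 203, 335 and 111 CPM.

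Plasmacytoid dendritic-gated cells (Siglech and Ccr9) had Klrd1 and Klra17. Klrd1 was at 376 CPM in high fat CD169-DTR (41 cells), 382 in normal diet CD169-DTR (21 cells) and 458 in normal diet WT (16 cells), and Klra17, whose product Ly49Q is known from these cells, was at 120, 108 and 91.5 CPM. The high fat WT library had 2 such cells. Klra4 and Klrb1b had 0 UMIs in these cells. Migratory dendritic-gated cells (Fscn1, Ccl22 and Il4i1) had Klrd1 at 115, 131, 157 and 132 CPM and Klrk1 at 107, 80.4, 110 and 63.0, in the order high fat CD169-DTR, high fat WT, normal diet CD169-DTR and normal diet WT. Klri1 was at 8.64, 20.1, 10.4 and 15.4 CPM there, from 29 UMIs, and higher in WT of each diet, within counting error.

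**Figure D5:**
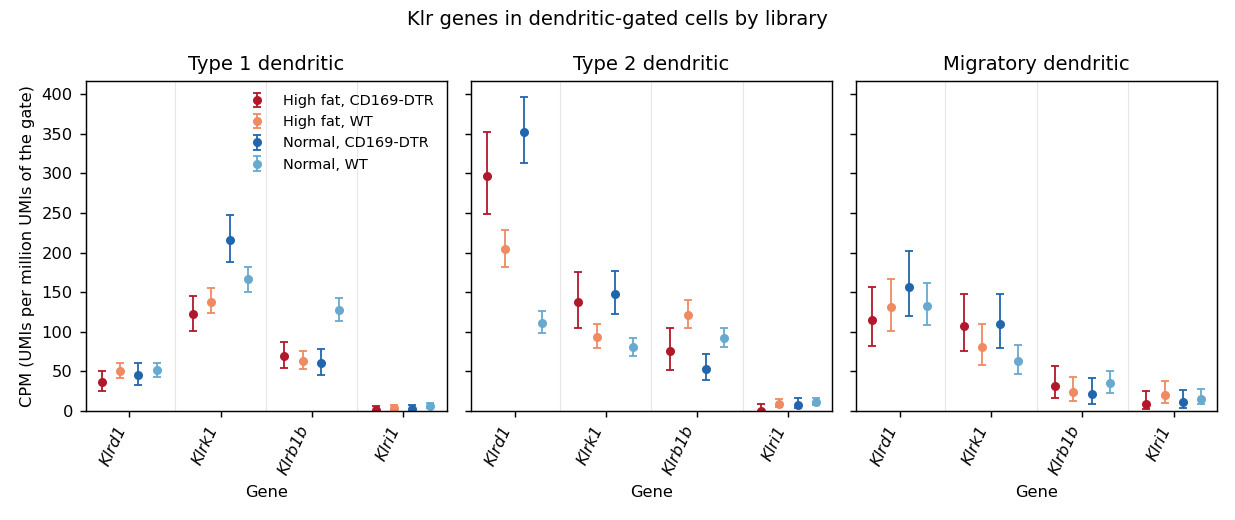
CPM of 4 Klr genes in type 1, type 2 and migratory dendritic-gated cells (left to right) by library, with exact Poisson intervals. In type 2 dendritic-gated cells Klrd1 is at 297 and 353 CPM in the CD169-DTR libraries, above 204 and 111 CPM in the WT libraries.

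Klra2 was a myeloid gene in these cells, as its product Ly49B is known to be. In monocyte-gated cells it was at 48.6 CPM in high fat CD169-DTR, 44.9 in high fat WT, 121 in normal diet CD169-DTR and 58.6 in normal diet WT, with a UMI in 25.3%, 26.9%, 49.0% and 33.5% of cells. In macrophage-gated cells it was at 20.2, 8.37, 25.1 and 25.0 CPM. There it was called higher in CD169-DTR than in WT on high fat diet, at a log2 ratio of 1.27 (0.76 to 1.81), where 1 of 2 measured Klr genes was called, 11.5% of 9113 genes were higher and the median over all genes was 0.26. In normal diet 0 of 1 was called, where 16.2% of genes were. It was lower on high fat than on normal diet in WT, at -1.58 (-2.38 to -0.73), where 2.65% of 7385 genes were lower. On high fat over normal diet in CD169-DTR, 1 of 2 measured Klr genes was called, Klrk1, with 22 UMIs at 3.47 CPM on high fat and 30 UMIs at 11.2 CPM on normal diet, where 1.16% of 8772 genes were lower. The sort removed a large part of macrophages and monocytes, so these cells are those that it left. Neutrophil-gated cells had Klra2 at 120, 90.2, 77.1 and 69.7 CPM, from 4 to 11 UMIs a library.

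Ligands of these receptors were counted in fibroblast-gated cells, the largest class. In high fat diet 6 of 8 measured ligand genes were higher in CD169-DTR than in WT, where 13.6% of 11967 genes were higher and the median over all genes was 0.28. Clec2d, the ligand of NKR-P1B, was at 86.9 CPM in CD169-DTR and 21.2 CPM in WT, and H2-K1, a classical class I ligand of Ly49 receptors, at 1581 and 688 CPM. The NKG2D ligand Raet1d had 53 UMIs in CD169-DTR and 2 in WT, at 2.17 and 0.107 CPM. Ulbp1 was at 3.73 and 1.23 CPM, and Cdh2, N-cadherin, at 2.99 and 0.855 CPM. A gene was measured by the UMIs of the pair of libraries together. Raet1d, Ulbp1 and Cdh2 could thus be measured through high fat CD169-DTR, where they were higher. The count of 6 depends in part on this rule, which held for all genes, and its share was not tested. H2-Q7 was at 103 and 10.2 CPM. With TMM scaling H2-K1 was at 0.93 and no longer called. H2-T23, which encodes Qa-1, was within 2-fold, with a log2 ratio of 0.21 (0.10 to 0.32). On normal diet 2 of 5 measured ligands were higher, H2-K1 at 1930 and 952 CPM and H2-Q7 at 109 and 25.5 CPM, where 4.74% of 11194 genes were higher, and with TMM scaling H2-K1 was at 0.96 and within 2-fold. On high fat over normal diet, 1 of 8 was higher in CD169-DTR, Raet1d, at 2.17 and 0.587 CPM, where 7.01% of genes were higher. Here too Raet1d could be measured through high fat CD169-DTR. In WT 2 of 5 were lower, H2-Q7 at 10.2 and 25.5 CPM and Clec2d at 21.2 and 45.6 CPM, where 5.97% were lower, and with TMM scaling Clec2d was at -0.96 and within 2-fold. Immune genes that fibroblasts should lack were also higher in high fat CD169-DTR fibroblast-gated cells, with Tyrobp at 29.2 and 9.51 CPM in CD169-DTR and WT, and their part in the ligand values was not tested.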

How the data were processed

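The table deposited by the authors gives a raw UMI count for each gene in each barcode, with Cell Ranger 3.1.0 and mm10 named in the submitters' processing notes. It covers 4 libraries, each deposited as 8 index and lane records (32 in all). Each barcode ends in a number, read as the place of its library in the deposited list of pooled libraries, an order that no other file checks. No source used here says whether depth was equalised. Libraries had between 4014 and 6696 barcodes and 33390225 to 64766718 UMIs.

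Cells needed 300 or more genes and no more than 10% mitochondrial UMIs, and were kept unless marked as doublets called by Scrublet (scanpy 1.11.5) per library at an expected 5.4% (0.690% to 1.37% marked). Cells were gated on raw marker UMIs: NK, 2 or more of Ncr1, Eomes, Prf1 and Tbx21 with no Cd3d, Cd3e or Cd3g; T, 2 or more Cd3; group 2 innate lymphoid, Gata3 with 3 or more of Gata3, Il1rl1, Il13, Il5 and Il17rb and no Cd3; type 1 dendritic, 2 or more of Xcr1 and Clec9a; type 2 dendritic, 2 or more Cd209a; migratory dendritic, 4 or more of Fscn1, Ccl22 and Il4i1; plasmacytoid dendritic, 3 or more of Siglech and Ccr9; macrophage, 20 or more C1qa, C1qb and C1qc. Neutrophil (50 or more S100a8 and S100a9), B, fibroblast, endothelial, mast and monocyte cells were gated in the same way. A cell in 2 gates was left out. Gate thresholds were set after the data were seen, and the genes and lists were chosen with earlier results of these data known.

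UMIs were summed per library and gate and divided by the sum of all genes (CPM). Intervals are exact Poisson for a level, conditional binomial for a ratio and Clopper-Pearson for a share. UMIs are counted molecules, and the intervals cover counting error only. With 1 library per group there was no test: a gene was called by size alone, at 2-fold or more with at least 50 UMIs in the pair of libraries and 50 cells in each. Every Klr gene with 50 UMIs was named. Calling was tested on simulated counts. Klra genes per NK-gated cell, the share with 2 or more and the Klrk1 share were also given in cells thinned to 1500 UMIs. So was the Klrg1 share of group 2 innate lymphoid-gated cells, and all other shares are at full depth. Of 17 ligand genes in the list, 16 matched a symbol in the table, and of 20 other NK receptors, 19. Alternatives were other cell filters, stricter gates, kept doublets, equal weight per cell, TMM scaling (edgeR 4.0.16), other UMI minimums, and TMM scaling of list genes and 4 subsets of cells, both added after the data were seen.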

Additional observations from a re-analysis of the deposited data

Results flagged for a closer look

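Some Klr genes had log2 ratios beyond counting error that pointed in opposite directions under the same contrast in different groups. Chosen for that, they are listed as values, and with 1 library per group the difference itself was not tested. In NK-gated cells, CD169-DTR over WT gave -0.39 for Klra4 in high fat diet and 0.42 in normal diet, and for Klra1 -0.65 in high fat diet and 0.61 in normal diet. High fat over normal diet gave -0.55 for Klrc2 in CD169-DTR and 0.52 in WT, -0.41 for Klrc1 in CD169-DTR and 0.29 in WT, and -0.79 for Klra1 in CD169-DTR and 0.46 in WT. In T-gated cells, Klrc1 gave -1.09 in CD169-DTR and 0.82 in WT for high fat over normal diet. The contrasts share libraries, so these are not separate pieces of evidence.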

How the results depend on the processing

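No paired analysis was possible because each group has 1 library and no replicate could be left out. Of 916 alternative log2 ratios of single genes, 881 stayed within the counting interval, 35 moved and 0 reversed. Counts of detected genes were unchanged within 1.5 times in 64 of 64 alternatives. For CD169-DTR over WT in NK-gated cells, the high fat count of 3 was 1 (Klrg1) with equal weight per cell and 1 without cells with cell cycle UMIs, and 2 (Klrc1 and Klra9) without cells with 2 or more Ltb UMIs, alternatives added after the data were seen. The normal diet count of 0 was 1 (Klrg1) with equal weight per cell, with TMM scaling and without cycling cells, 1 (Klra6) with a minimum of 20 UMIs, and 2 with 1 UMI in each library. For high fat over normal diet in NK-gated cells, CD169-DTR gave 1 with doublets kept (Klra4), with the stricter gate (Klra1) or with 20 UMIs (Klra6), and 2 with 1 UMI in each library, while WT gave 1 with the stricter cell filter or gate (Klrg1) and 1 with 1 UMI in each library (Klri1). In T-gated cells, CD169-DTR over WT in normal diet gave 11 with 20 UMIs or 1 UMI in each library and 0 without cells with NK marker UMIs (added after the data were seen), where 0 of the 7 genes called in all cells had 50 UMIs. High fat diet gave 1 with equal weight per cell (Klre1) and 3 with 20 UMIs or 1 UMI in each library. High fat over normal diet in CD169-DTR gave 11 with 20 UMIs, 14 with 1 UMI in each library and 0 without NK marker UMIs (0 of the 7 had 50 UMIs), and WT gave 1 with equal weight per cell (Klrc2), 6 with 20 UMIs, 10 with 1 UMI in each library and 1 without NK marker UMIs (Klrd1, while 0 of the 3 called in all cells had 50 UMIs). Group 2 innate lymphoid-gated cells gave 1 with 1 UMI in each library, and their other 3 comparisons could not be made with under 50 cells. Thinning moved the Klra genes per NK-gated cell to 1.20, 1.47, 1.73 and 1.72. TMM scaling shifted NK-gated log2 ratios of CD169-DTR over WT by -0.14 in high fat and -0.16 in normal diet. Depth limits the low genes: 3 UMIs correspond to 3.53 CPM in NK-gated cells of high fat CD169-DTR. Beyond fewer cells or genes entering, the cause of these changes was not tested.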
